A study of Mus musculus with 6 samples.

Results

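Dll4, Jag1, Jag2, Notch1, Notch2, Notch4, Hey1, Hes1, Nrarp and Lfng, genes of the Notch pathway, were followed across the cell types of the mouse retina in oxygen-induced retinopathy (OIR) and between eNOS+/+ and eNOS-/- mice. They were taken by name as members of the pathway, 10 of the 20822 genes in the count table, and comprise 3 ligands, 3 receptors, 3 target genes and 1 glycosyltransferase. The eNOS+/+ mice were C57BL/6J, and the eNOS-/- mice, homozygous for a knockout allele of Nos3 and backcrossed to C57BL/6J, are deficient in endothelial nitric oxide synthase (eNOS). Pups of both genotypes were kept with CD1 foster mothers in 75% oxygen from postnatal day 7 to day 12 (P7 to P12) and then in room air. At P14, endothelial cells (ECs) were enriched with beads against CD31 and Drop-seq was run on single cells of 3 replicates per genotype, each a pool of 3 to 5 retinas. In this method every captured transcript end carries a barcode of its cell and a unique molecular identifier (UMI), so that each UMI counts 1 molecule. All samples were from OIR retinas, and no retina kept in room air throughout was analysed here.

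Notch is a signal between cells that touch. A Delta or Jagged ligand on a cell binds a Notch receptor on its neighbour, the receptor is cleaved, and its intracellular part enters the nucleus and, with the DNA-binding protein RBPJ, switches on targets of the Hes and Hey families. In sprouting retinal vessels, VEGF raises Dll4 in tip cells, and Dll4 in turn holds the cells behind them back from the tip cell state through their Notch receptors, while Jagged1 and the Fringe enzymes shift this balance and Nrarp, itself a target, feeds back on it.

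The table held 8944 cells, 415 to 3710 per replicate, and 617246 to 3350799 UMIs per replicate, with eNOS-/- replicate 3 the smallest. The authors' annotation named 10 cell types, and its label ECs is called Structural ECs here. Together the EC labels held more cells of each genotype than the authors counted as ECs in the paper. In 9 of the 10 marker lists at least 6 markers were highest in the type they stand for. The exceptions within these lists were Pgf, Cd79a and Apoe, and the list for Optc+ cells was Optc alone. Structural ECs had no list of their own. The annotation came from the same UMIs, and the lists were chosen with earlier results of these data known. These counts therefore describe the labels and do not check them. All 10 EC markers were higher in ECs than in any other type. Nos3 itself was at 26.5 ± 8.9 CPM (UMIs of a gene per 1000000 UMIs) in ECs of eNOS+/+ and 23.3 ± 8.6 in eNOS-/- (SD, n = 3 each), so its UMIs, which come from the end of the transcript and may lie outside the altered part of the gene, do not check the genotype labels. Structural ECs of eNOS-/- replicate 3 carried 4156 CPM of 8 mural cell markers, against 42.4 to 191.4 CPM in the other 5 replicates, and fold changes in Structural ECs are therefore also given without it. The largest sum of these markers in an eNOS-/- replicate was 301.6 CPM in Tip ECs, 319.7 CPM in Proliferative ECs and 6862 CPM in neurons. The eNOS-/- medians there were 93.6, 35.5 and 99.5 CPM, and the eNOS+/+ maxima 115.2, 43.4 and 375.9 CPM. Sums over all ECs include the Structural ECs of eNOS-/- replicate 3. No cell barcode was shared by replicates of the same genotype, and 3 in all were shared between genotypes. The labels call the replicates separate, without saying which animals were pooled, so that p-values measure the spread between these pools.

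The promoter sequences of the members can be read beside their levels, and 8 of the 10 were found in the RefSeq promoter table (GRCm38.p6, 250 bases before to 50 bases after the start). They were searched on both strands for TGGGAA, the core of the RBPJ site, found in 25.6% of all 32851 promoters of this length, and for CACGTG, an E-box of the kind that Hes and Hey proteins are known to bind, found in 7.15%. Dll4 and Notch4 are shown because both were highest in Tip ECs, and Nrarp and Lfng because they were the members with a match, which is marked in capitals. In Lfng the last RBPJ core shares its first bases with the E-box, and in the other run of capitals the core is read on the opposite strand. No match in Dll4, Jag1, Jag2, Notch1, Notch2 or Notch4 says only that these letters do not occur in this window. The windows are chr2:119325534-119325833 (plus strand) for Dll4, chr17:34564045-34564344 (plus strand) for Notch4, chr2:25180508-25180807 (plus strand) for Nrarp and chr5:140607091-140607390 (plus strand) for Lfng.
Dll4: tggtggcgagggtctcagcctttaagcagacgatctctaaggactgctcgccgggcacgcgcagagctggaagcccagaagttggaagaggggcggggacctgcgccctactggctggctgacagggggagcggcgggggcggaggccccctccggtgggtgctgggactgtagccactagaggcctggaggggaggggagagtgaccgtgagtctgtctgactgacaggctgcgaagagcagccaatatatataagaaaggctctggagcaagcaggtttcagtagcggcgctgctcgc
Notch4: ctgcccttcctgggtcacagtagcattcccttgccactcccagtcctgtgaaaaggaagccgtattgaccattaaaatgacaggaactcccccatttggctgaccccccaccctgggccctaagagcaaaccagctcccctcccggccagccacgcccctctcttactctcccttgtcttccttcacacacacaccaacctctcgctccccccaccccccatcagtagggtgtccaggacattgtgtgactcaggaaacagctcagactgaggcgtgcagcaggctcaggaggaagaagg
Nrarp: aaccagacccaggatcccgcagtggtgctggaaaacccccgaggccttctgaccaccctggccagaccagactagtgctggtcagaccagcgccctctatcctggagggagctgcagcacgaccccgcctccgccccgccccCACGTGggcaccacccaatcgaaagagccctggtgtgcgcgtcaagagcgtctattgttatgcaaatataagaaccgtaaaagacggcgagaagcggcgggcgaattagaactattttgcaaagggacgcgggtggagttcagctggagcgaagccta
Lfng: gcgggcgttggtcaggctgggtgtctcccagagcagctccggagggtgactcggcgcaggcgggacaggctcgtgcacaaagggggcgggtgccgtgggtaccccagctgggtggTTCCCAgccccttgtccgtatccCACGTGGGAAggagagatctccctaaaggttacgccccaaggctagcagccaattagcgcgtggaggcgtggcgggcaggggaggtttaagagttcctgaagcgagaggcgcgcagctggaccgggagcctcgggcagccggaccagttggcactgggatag

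Among the ligands, Dll4 was found in ECs and was highest in Tip ECs, while Jag1 and Jag2 stood at similar levels in the 3 EC subtypes. Levels are CPM of the UMIs summed over the cells of a type in a replicate, for replicates with at least 10 such cells, and since only transcript ends were counted they are compared between cells but not between genes. The EC subtypes were defined by the authors from the same UMIs, so levels in them are described without a test.

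Dll4 (chromosome 2, 119325784 to 119335962, plus strand), the Delta-type ligand of tip cells, had 92.2, 58.8 and 103.1 CPM in Tip ECs of the eNOS+/+ replicates 1 to 3 and 71.8, 128.6 and 119.2 CPM in those of the eNOS-/- replicates (95.6 ± 27.0, SD, n = 6). In Structural ECs the values were 67.4, 56.7 and 54.2 CPM and 70.7, 47.4 and 67.3 CPM (60.6 ± 9.2), and in Proliferative ECs 38.7, 49.5 and 39.4 CPM and 55.3, 38.9 and 38.4 CPM (43.4 ± 7.3). Within every replicate the order was Tip, Structural, Proliferative, with a mean log2 ratio of 0.58 ± 0.52 for Tip over Structural ECs (0.02 to 1.35) and of -0.44 ± 0.24 for Proliferative over Structural ECs (SD, n = 6, with 5 CPM added to both levels). The gap between the Tip and Structural means, 35.0 CPM, was just under the sum of both SDs (36.2). Outside ECs the pooled level of Dll4 was at most 12.2 CPM, in rods (8 UMIs), and it had no more than 2 UMIs in any other type.

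Jag1 (chromosome 2, 137081456 to 137116644, minus strand), a Jagged ligand, ranged from 125.6 to 187.3 CPM in Tip ECs (median 163.3), from 137.7 to 215.4 CPM in Structural ECs (median 155.7) and from 76.7 to 173.5 CPM in Proliferative ECs (median 152.1). The 3 subtypes overlapped, and no subtype was highest in every replicate. Jag1 was the member with the largest number of UMIs in rods, 57, and was found in all 5 replicates with at least 10 rods (71.3 to 417.6 CPM, the highest from 3 UMIs). In these rods the 10 EC markers together reached 700.5 to 3762 CPM against 5887 to 9044 CPM in the EC subtypes. The part of free RNA in this was not tested. Its UMIs in mural cells are described with the genotypes.

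Jag2 (chromosome 12, 112907819 to 112929776, minus strand), the other Jagged ligand, ranged from 49.1 to 115.2 CPM in Tip ECs (median 64.2), from 57.4 to 98.3 CPM in Structural ECs (median 67.6) and from 38.9 to 112.5 CPM in Proliferative ECs (median 67.3). The subtype means of 71.2, 71.4 and 70.7 CPM lay within 1 SD of each other. In the other types its mean was 27.8 CPM or less, in neuroglia from 4 UMIs of a single replicate.

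**Figure D1:**
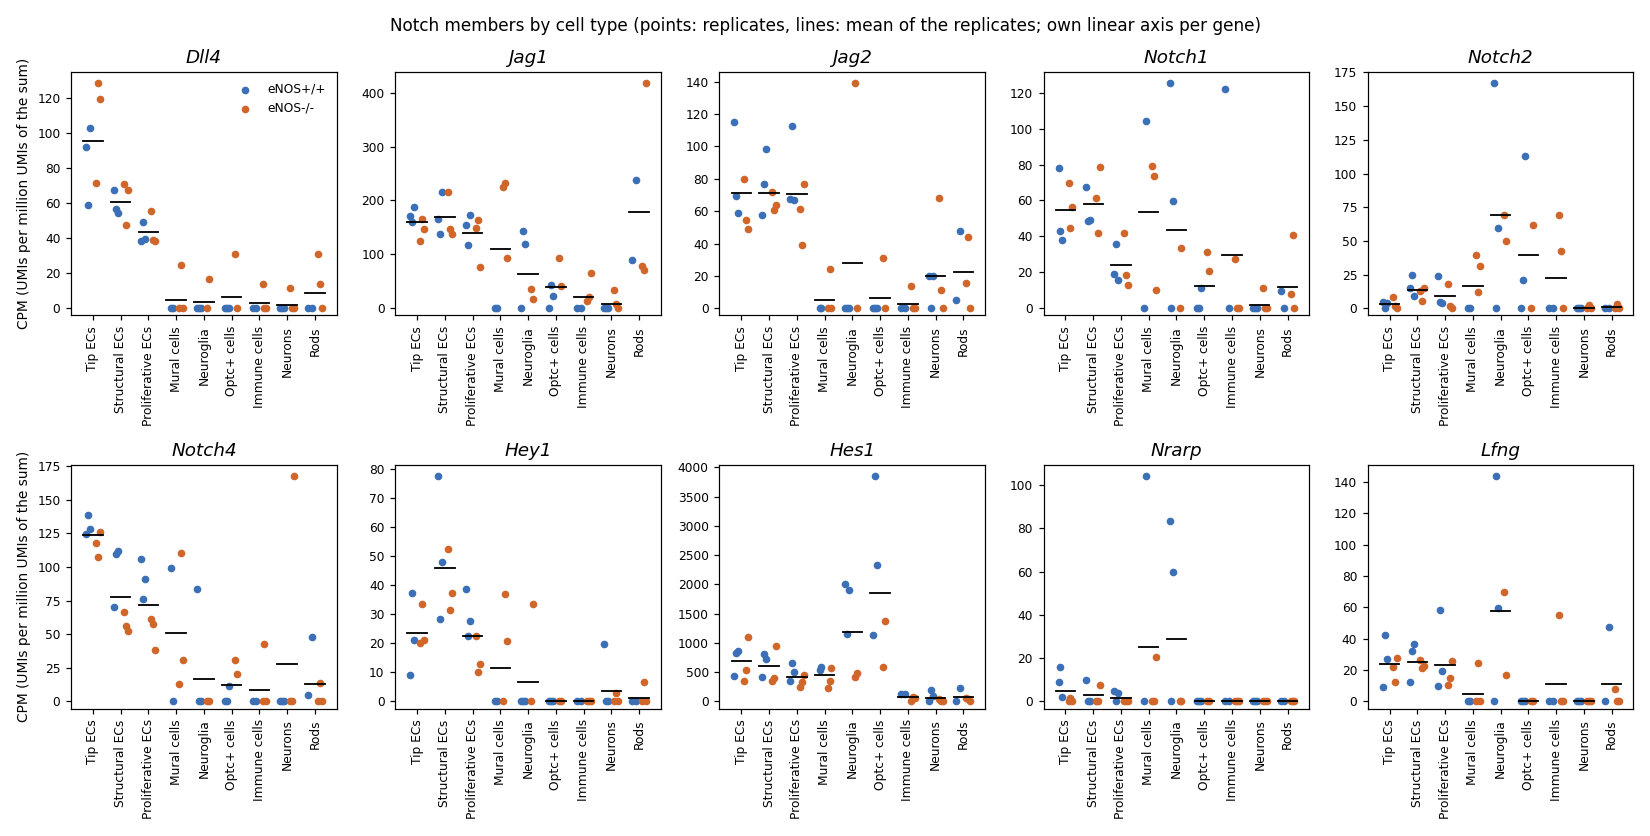
Level of each member in CPM (vertical axis, linear, with its own range for each gene) in 9 cell types (horizontal axis) by replicate, with at least 10 cells per point, eNOS+/+ in blue and eNOS-/- in orange, and the mean of the replicates as a line. Dll4, Jag2, Notch4 and Hey1 were highest on average in ECs, Hes1 in Optc+ cells and neuroglia, and points far from the rest outside ECs, such as Notch4 in neurons, rest on as little as 1 UMI.

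Among the receptors, Notch4 followed Dll4 in being highest in Tip ECs, Notch1 was lowest of the EC subtypes in Proliferative ECs, and Notch2 was sparse in ECs. Notch4 (chromosome 17, 34564268 to 34588503, plus strand), the receptor found mostly in endothelium, had 124.4, 138.9 and 128.3 CPM in Tip ECs of the eNOS+/+ replicates and 117.7, 107.6 and 126.2 CPM in those of the eNOS-/- replicates (123.9 ± 10.5, SD, n = 6). Structural ECs had 69.9, 109.3 and 112.1 CPM and 66.3, 56.3 and 52.3 CPM (77.7 ± 26.4), and Proliferative ECs had 106.3, 76.5 and 90.7 CPM and 61.3, 57.5 and 38.4 CPM (71.8 ± 24.5). Tip ECs were highest in 6 of 6 replicates, and their mean lay above that of Structural ECs by 46.1 CPM, more than the sum of both SDs (36.9). Proliferative and Structural ECs had no fixed order, with Proliferative ECs higher in 2 of 6 replicates. Mural cells followed with 50.8 ± 50.7 CPM (n = 5), from 15 UMIs.

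Notch1 (chromosome 2, 26457903 to 26516663, minus strand), the receptor through which Dll4 acts in sprouting vessels, ranged from 37.9 to 78.3 CPM in Tip ECs (median 50.4) and from 42.0 to 78.5 CPM in Structural ECs (median 55.1). In Proliferative ECs it ranged from 12.8 to 41.9 CPM (median 19.0), below both other subtypes in 6 of 6 replicates, with a log2 ratio to Structural ECs of -1.18 ± 0.70 (SD, n = 6). Mural cells (53.4 ± 45.7 CPM, 16 UMIs) and neuroglia (43.7 ± 52.1 CPM, 6 UMIs) overlapped all 3 subtypes (n = 5 each).

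Notch2 (chromosome 3, 98013527 to 98150361, plus strand), a receptor that is widely expressed outside endothelium, had 72 UMIs in all ECs together. It was lower in Tip ECs (0 to 8.0 CPM) than in Structural ECs (5.4 to 24.3 CPM) in 6 of 6 replicates, on 8 and 44 UMIs. Its mean was highest in neuroglia (69.3 ± 60.9 CPM, 10 UMIs) and Optc+ cells (39.2 ± 48.4 CPM, 14 UMIs), with replicates at 0 in both, so that its order among these cell types and ECs was not separable from the spread.

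Of the targets, Hes1 was the member with the widest range across cell types, Hey1 had its highest mean in Structural ECs, and Nrarp was barely captured. Hes1 (chromosome 16, 30064384 to 30067796, plus strand), a transcriptional repressor that Notch and other signals induce, ranged from 590.1 to 3846 CPM in Optc+ cells (median 1377) and from 417.4 to 2005 CPM in neuroglia (median 1149; n = 5 each). Tip ECs had 433.2, 833.3 and 864.8 CPM of it in eNOS+/+ and 357.0, 543.6 and 1101 CPM in eNOS-/-. Structural ECs had 414.2, 809.9 and 723.0 CPM and 345.7, 393.5 and 945.5 CPM, and Proliferative ECs 343.0, 661.2 and 500.8 CPM and 242.3, 339.6 and 447.6 CPM.

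The lowest replicate was eNOS-/- replicate 1 in each of the 3 subtypes, while eNOS-/- replicate 3, the highest in Tip and Structural ECs, was below eNOS+/+ replicates 2 and 3 in Proliferative ECs. Within each replicate Tip ECs were highest and Proliferative ECs lowest, with log2 ratios to Structural ECs of 0.18 ± 0.17 and -0.48 ± 0.32 (SD, n = 6). The step from Proliferative ECs (422.4 CPM on average) to immune cells (82.2 CPM) was larger than the sum of both SDs, and rods and neurons were lower still, at 69.3 and 57.1 CPM.

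Hey1 (chromosome 3, 8663359 to 8667256, minus strand), a Hairy-related repressor downstream of Notch in vessels, ranged from 28.3 to 77.4 CPM in Structural ECs (median 42.6), from 9.2 to 37.4 CPM in Tip ECs (median 21.0) and from 10.1 to 38.7 CPM in Proliferative ECs (median 22.5). Proliferative ECs were below Structural ECs in 6 of 6 replicates (log2 ratio -0.91 ± 0.38), while Tip ECs were below them in 4 of 6 (-0.84 ± 1.03; SD, n = 6). It had 0 UMIs in Optc+ cells and in immune cells, which allows up to 12.7 and 17.9 CPM (3 counts of the summed UMIs, counting error only).

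Nrarp (chromosome 2, 25180758 to 25183339, plus strand), the feedback inhibitor, had 15 UMIs in all ECs, of which eNOS+/+ held 7, 3 and 2 and eNOS-/- held 0, 1 and 2. Pooled over replicates this was 3.99 CPM (12 UMIs, 95% Poisson interval 2.06 to 6.98) and 0.574 CPM (3 UMIs, 0.118 to 1.68), intervals that cover counting error only. Replicates of the genotypes overlapped, since the 2 UMIs of eNOS-/- replicate 3 came from 488367 and the 2 of eNOS+/+ replicate 3 from 1522739. Nrarp did not pass the filter on low counts, so the main fits did not test it. Without that filter, 10 members were tested in all ECs and 0 were called. Lfng (chromosome 5, 140607320 to 140615545, plus strand), the Fringe enzyme that adds a sugar to Notch receptors and changes which ligand they prefer, ranged from 9.2 to 42.7 CPM in Tip ECs (median 24.6), from 12.5 to 36.5 CPM in Structural ECs (median 24.3) and from 9.7 to 58.5 CPM in Proliferative ECs (median 17.5). The subtypes overlapped throughout. Neuroglia had 57.9 ± 56.0 CPM (n = 5) from 5 UMIs.

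Over all 10 members and their neighbours in the order of mean levels, 4 gaps were larger than the sum of both SDs. They were the gap of Dll4 between Structural and Proliferative ECs, that between Proliferative ECs and rods, the gap of Notch4 between Tip and Structural ECs and that of Hes1 between Proliferative ECs and immune cells. The genes most like a member over 42 sums of cell type and replicate with at least 20000 UMIs, by Pearson's r of log2(CPM + 10) among 7750 genes with a mean of at least 20 CPM, were Jcad (r = 0.92), Fam167b (0.91) and Car5a (0.90) for Dll4. They were Htra3 (0.85), Edn1 (0.84) and Mmp25 (0.84) for Notch4, Rhoj (0.88), Dusp1 (0.85) and Id3 (0.84) for Hes1, Heg1 (0.84), Ahnak (0.83) and 4931406P16Rik (0.79) for Jag1, Tspan18 (0.86), Srgap1 (0.85) and Rassf9 (0.84) for Jag2, and Arhgef12 (0.80), Csrp2 (0.79) and Lrrc8c (0.74) for Notch1. The sums share libraries and differ in depth, so these values describe the table only. The other 4 members had a mean under 20 CPM and are not given.

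At the level of single cells the members were sparse. With each cell drawn down to 500 UMIs, which kept 1091 of 1428 Tip, 1647 of 3335 Structural and 807 of 1162 Proliferative ECs and 421 of 1508 rods, a UMI of any of the 3 ligands was found in 13.9% of Tip ECs, 12.5% of Structural ECs, 10.4% of Proliferative ECs and 3.80% of rods. For the 3 receptors the shares were 7.70%, 6.44%, 4.71% and 1.19% in the same order. A ligand and a receptor in the same cell were found in 12 of 1091 Tip ECs, 20 of 1647 Structural ECs and 8 of 807 Proliferative ECs.

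A Dll4 UMI was found at this depth in 4.67% of Tip ECs (95% Wilson interval 3.57% to 6.09%), 2.49% of Structural ECs (1.84% to 3.36%), 1.86% of Proliferative ECs (1.13% to 3.04%) and 0.24% of rods (0.04% to 1.33%). These intervals take cells as independent, count near-identical barcodes as separate cells and leave out the spread between replicates, so they are no test between subtypes. Over the 6 replicates, the log2 ratio of Dll4 levels in Tip over Structural ECs ranged from 0.02 to 1.35. For Notch4 the shares were 5.32%, 3.46%, 3.35% and 0.24%. The shares of Hes1 were 22.0%, 19.9%, 16.5% and 1.43%, and 56.8% in Optc+ cells. At full depth, a Dll4 UMI was found in 12.8% of Tip ECs, 5.76% of Structural ECs, 6.20% of Proliferative ECs and 0.398% of rods, with median depths of 1007, 491, 963.5 and 361 UMIs.

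**Figure D2:**
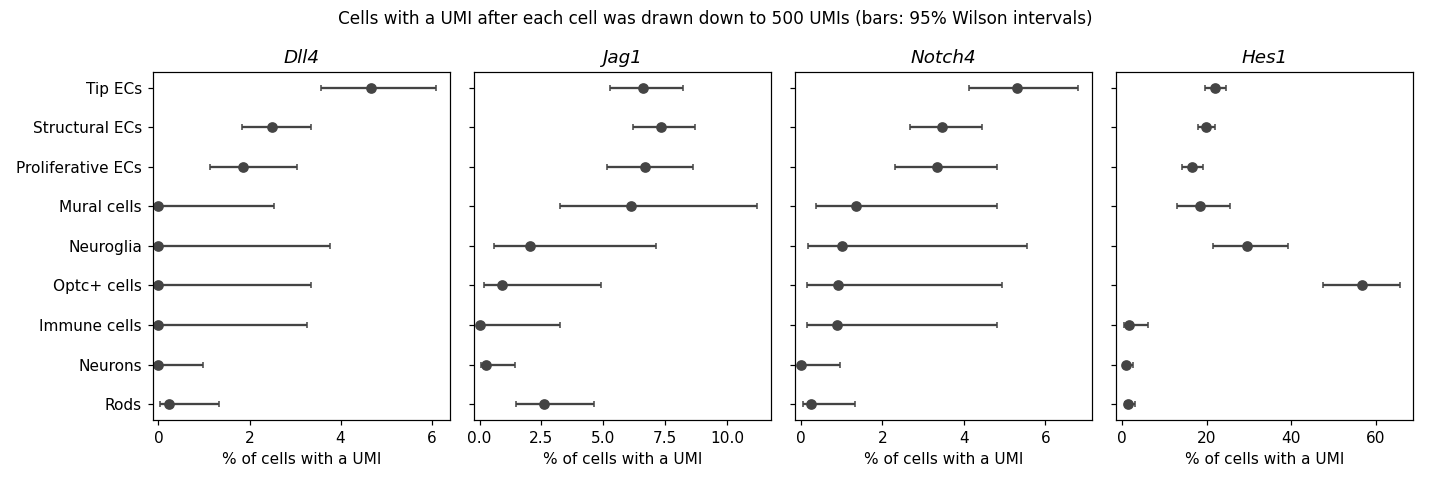
Percent of cells with a UMI of Dll4, Jag1, Notch4 and Hes1 (horizontal axes, each with its own range) in 9 cell types after each cell was thinned at random to 500 UMIs, with 95% Wilson intervals that cover counting error only. Dll4 reached 4.67% of Tip ECs and 0.24% of rods, Jag1 was found in 6.60% of Tip ECs and 2.61% of rods, and Hes1 was found in 56.8% of Optc+ cells.

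Between the genotypes, Notch4 and Jag2 were the members whose replicates did not overlap in all ECs, both lower in eNOS-/-, and no member passed the test. UMIs were summed per replicate and compared in edgeR (quasi-likelihood test), p-values were adjusted over all genes tested by the Benjamini-Hochberg method, and a gene was called at an adjusted p under 0.05. In all ECs, where 0.0211% of 9483 genes were called, 0 of the 9 members that passed the filter on low counts were called, and by DESeq2 also 0; 1 of the 9, Notch4, had an unadjusted p under 0.05, as had 5.78% of all genes. Of all genes tested, 10.4% had genotypes that did not overlap, 5% with eNOS-/- lower. The share of the members, 2 of 9, was above that but rests on 2 genes. The median log2 fold change of eNOS-/- over eNOS+/+ was -0.30 over the 9 members (7 below 0) and 0.008 over all genes (4641 of 9483 below 0). Of those 7, Jag1, Notch2 and Hes1 turned sign with a replicate left out. The member left out was Nrarp.

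Notch4 was at 93.4, 106.6 and 113.6 CPM in all ECs of eNOS+/+ and at 76.0, 71.7 and 71.7 CPM in those of eNOS-/-. Every eNOS-/- replicate was below every eNOS+/+ replicate. The means were 104.5 ± 10.3 and 73.1 ± 2.5 CPM (SD, n = 3 each), with a log2 fold change of -0.53 (SE 0.20, 95% interval -0.96 to -0.09, unadjusted p = 0.021, adjusted p = 0.824 by edgeR's quasi-likelihood test). Notch4 thus failed the correction over all genes. With each replicate left out its log2 fold change ranged from -0.59 to -0.44.

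The gap was seen in Structural ECs, where the means were 97.1 ± 23.6 and 58.3 ± 7.2 CPM (log2 fold change -0.74, SE 0.29, adjusted p = 0.864 by the same edgeR test) and the genotypes did not overlap, as for 10.5% of genes there (4.79% with eNOS-/- lower). Without eNOS-/- replicate 3, whose Structural ECs carried mural markers, the log2 fold change was -0.71 (adjusted p = 0.451, edgeR). In Proliferative ECs the means were 91.2 ± 14.9 and 52.4 ± 12.3 CPM, again without overlap, which 10.8% of genes showed, 5.43% with eNOS-/- lower (-0.66, SE 0.34, adjusted p = 0.825, edgeR). Taking 1 cell per family of near-identical barcodes moved this to -0.43.

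In Tip ECs Notch4 was at 130.6 ± 7.5 and 117.2 ± 9.3 CPM and the genotypes overlapped (-0.17, SE 0.28, 95% interval -0.74 to 0.40). Whether the difference between genotypes depended on the subtype was tested as an interaction with the replicate as a block over 7019 genes, of which 0% were called and 3.43% had an unadjusted p under 0.05. Of the 8 members tested there, 0 had either, and for Notch4 the unadjusted p was 0.209 (edgeR's quasi-likelihood test, adjusted p = 1.00). A difference of Notch4 between subtypes in its genotype effect was therefore not shown.

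**Figure D3:**
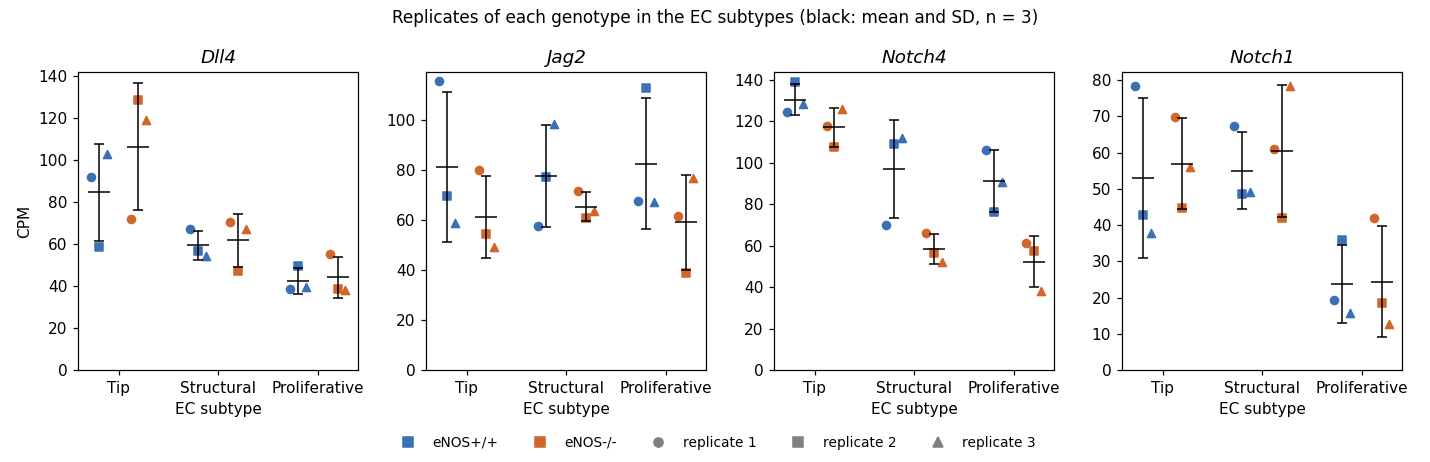
CPM (vertical axes from 0) of Dll4, Jag2, Notch4 and Notch1 in each replicate of eNOS+/+ (blue) and eNOS-/- (orange) in Tip, Structural and Proliferative ECs, with the mean and SD of 3 replicates in black. The eNOS-/- replicates of Notch4 lie below all eNOS+/+ replicates in Structural ECs (52.3 to 66.3 against 69.9 to 112.1 CPM) and Proliferative ECs (38.4 to 61.3 against 76.5 to 106.3 CPM) and overlap them in Tip ECs.

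Jag2 was at 75.2, 86.8 and 80.8 CPM in all ECs of eNOS+/+ and at 70.4, 53.6 and 61.4 CPM in those of eNOS-/-, without overlap. The means were 80.9 ± 5.8 and 61.8 ± 8.4 CPM (log2 fold change -0.40, SE 0.22, 95% interval -0.86 to 0.07, adjusted p = 0.885 by edgeR's quasi-likelihood test). Within each subtype the genotypes overlapped, with log2 fold changes of -0.32 (Tip), -0.29 (Structural) and -0.60 (Proliferative).

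The other ligands overlapped between the genotypes in every EC subtype tested. Dll4 in Tip ECs was at 84.7 ± 23.1 CPM in eNOS+/+ and 106.5 ± 30.4 CPM in eNOS-/- (log2 fold change 0.27, 95% interval -0.40 to 0.94), and in all ECs at 62.8 ± 6.9 and 71.2 ± 5.9 CPM (0.14, -0.33 to 0.61). Jag1 in all ECs was at 166.8 ± 31.4 and 154.8 ± 22.8 CPM (-0.12, 95% interval -0.57 to 0.34). The intervals leave room for a change of Dll4 in Tip ECs of up to 0.94 on the log2 scale.

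Notch1 was at 47.0 ± 9.8 and 52.0 ± 13.05 CPM in all ECs (log2 fold change 0.11, 95% interval -0.48 to 0.69) and Notch2 at 10.6 ± 4.0 and 8.3 ± 5.0 CPM (-0.30, -1.50 to 0.90). Hey1 had 49.7, 28.9 and 36.1 CPM in eNOS+/+ and 36.7, 26.8 and 28.7 CPM in eNOS-/- (-0.32, 95% interval -0.92 to 0.28), and Lfng 10.9, 44.2 and 30.9 CPM and 20.7, 17.3 and 24.6 CPM (-0.51, 95% interval -1.36 to 0.34). All 4 overlapped between the genotypes.

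Counts of calls were 0 in the subtypes as well. In Tip ECs 0 of 6 members tested were called (0.0181% of all genes), 0 had an unadjusted p under 0.05 (4.95%), and 0 had genotypes without overlap (10.3%). In Structural ECs 0 of 8 were called (0.0264%) and 1, Notch4, had an unadjusted p under 0.05 (5.52%). In Proliferative ECs 0 of 4 were called (0.0217%) and 1, Hes1, had an unadjusted p under 0.05 (6.38%). Without eNOS-/- replicate 3 the log2 fold changes in Structural ECs, beside that of Notch4, were -0.041 (Dll4), -0.0097 (Jag1), -0.30 (Jag2), -0.13 (Notch1), -0.37 (Hey1), -0.85 (Hes1) and -0.27 (Lfng), against 0.024, -0.078, -0.29, 0.052, -0.38, -0.25 and -0.26 with it. DESeq2 called 0 members in each subtype, and the numbers of members with an unadjusted p under 0.05 by DESeq2 were 0, 1 and 0.

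**Figure D4:**
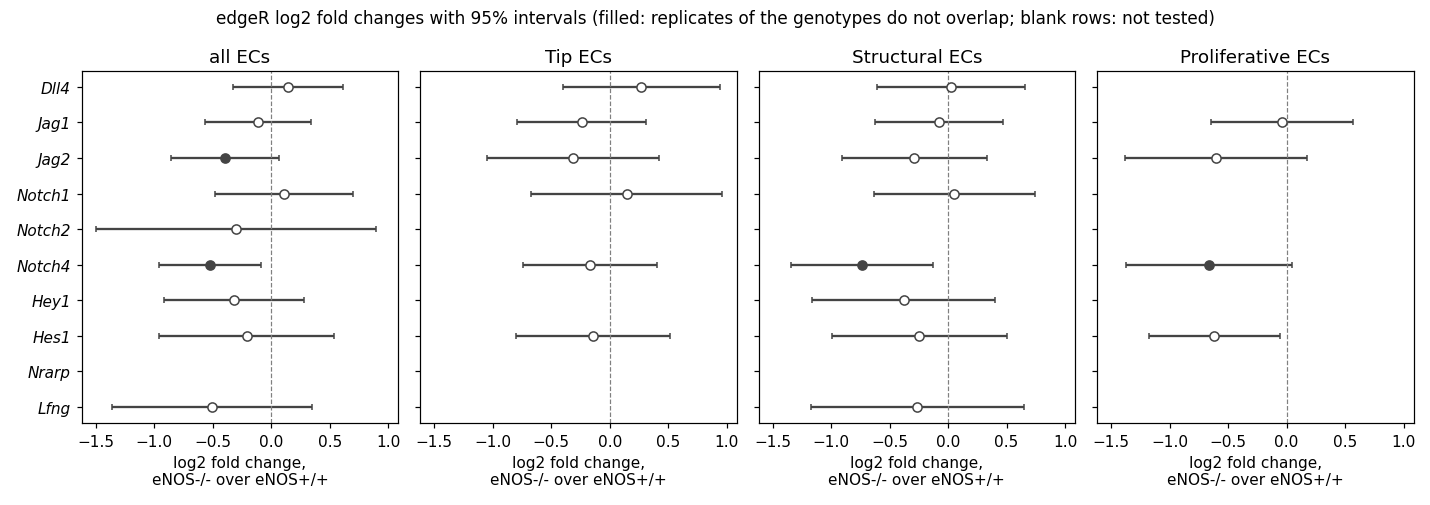
Log2 fold change of eNOS-/- over eNOS+/+ (horizontal axes) with its 95% interval from edgeR for each member (rows) in all ECs and in the 3 EC subtypes, filled where the replicates of the genotypes do not overlap, with blank rows where a member did not pass the filter on low counts. In all ECs 7 of 9 points lie below 0, as do 4641 of all 9483 genes tested. The interval of Notch4 (-0.96 to -0.09) is the one there that does not include 0.

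Hes1 had a log2 fold change below 0 in each of the 6 cell types where it was tested, with 0 calls, a wide spread between replicates and a size in ECs that moved most with eNOS-/- replicate 3. In all ECs it had 401.4, 766.2 and 730.3 CPM in eNOS+/+ and 318.3, 424.6 and 911.2 CPM in eNOS-/-, so that the lowest and the highest replicate were both eNOS-/-. The log2 fold change was -0.21 (SE 0.35, 95% interval -0.96 to 0.53, adjusted p = 0.978 by edgeR's quasi-likelihood test). It was -0.79 without eNOS-/- replicate 3 (adjusted p = 0.284, edgeR) and 0.09 without eNOS-/- replicate 1. In Proliferative ECs, where Hes1 was at 501.7 ± 159.1 and 343.2 ± 102.7 CPM, it was -0.62 (SE 0.27, 95% interval -1.17 to -0.06, unadjusted p = 0.0314, adjusted p = 0.721, edgeR).

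In neuroglia, Hes1 had 2005, 1149 and 1913 CPM in eNOS+/+ (48, 8 and 32 UMIs) and 417.4 and 483.5 CPM in eNOS-/- (12 and 29 UMIs), without overlap. The replicate with the highest Hes1 in Tip and Structural ECs, eNOS-/- replicate 3, held 0 cells of neuroglia and does not enter this comparison. The log2 fold change was -1.79 (SE 0.53, 95% interval -2.92 to -0.66, unadjusted p = 0.00428, adjusted p = 0.404 by edgeR's quasi-likelihood test), in a fit that called 0% of 472 genes and in which 5.93% had an unadjusted p under 0.05 and 22.5% did not overlap, 13.1% with eNOS-/- lower. With only cells of at least 500 UMIs the change was -2.05 and was called (adjusted p = 0.0469, edgeR), and over the other alternatives the adjusted p ranged from 0.141 to 0.998. The summed level of 8 mural cell markers in these cells was 0, 1293 and 478 CPM in eNOS+/+ and 2156 and 534 CPM in eNOS-/-, and that of 8 neuroglia markers was 18960 to 24063 CPM in eNOS+/+ and 22712 to 24775 CPM in eNOS-/-. Immune cells reached 18759 to 24022 CPM on the same 8 neuroglia markers, so that sum does not tell neuroglia from immune cells. The 8 immune cell markers summed to at most 59.8 CPM in neuroglia. The part of mural RNA in the difference was not tested.

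In Optc+ cells, named after their Optc transcripts, Hes1 had 1128, 3846 and 2333 CPM in eNOS+/+ and 590.1 and 1377 CPM in eNOS-/- (replicates 1 and 2, since replicate 3 held 5 such cells), and the genotypes overlapped. The log2 fold change was -1.26 (SE 0.43, 95% interval -2.11 to -0.41, adjusted p = 0.128 by edgeR's quasi-likelihood test), in a fit that called 2.06% of 1118 genes, with 11.1% at an unadjusted p under 0.05 and 26.7% without overlap, and it was -0.75 to -1.97 with each replicate left out. Without eNOS+/+ replicate 1 it was -1.54 and was called (adjusted p = 0.00569, edgeR). Optc itself stood at 4016 to 7602 CPM in these cells in eNOS+/+ and at 1926 to 2116 CPM in eNOS-/-, and 8 neuroglia markers at 11750 to 13397 and 8604 to 9287 CPM, and these ranges did not overlap. The 10 neuron markers summed to 296.9 to 520.9 CPM in eNOS+/+ and 1479 to 1584 CPM in eNOS-/-, and the 10 EC markers to 415.7 to 520.9 and 821.8 to 1926 CPM. The part of these differences in the Hes1 values was not tested. In mural cells Hes1 was at 567.9 ± 31.1 CPM (n = 2) and 387.7 ± 168.7 CPM (n = 3), with overlap, and 0% of the 1973 genes tested in mural cells were called (5.78% at an unadjusted p under 0.05).

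**Figure D5:**
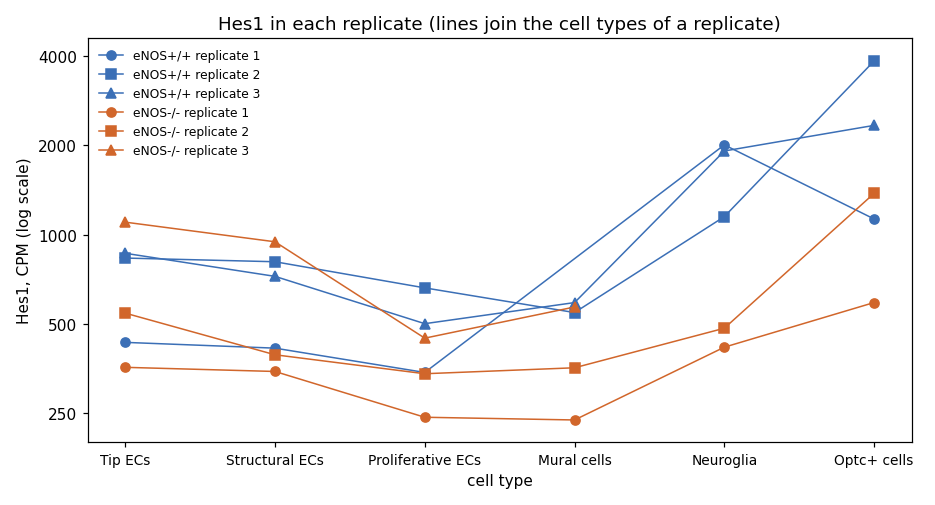
Hes1 in CPM (vertical axis, log scale) in 6 cell types (horizontal axis) for each replicate with at least 10 cells of the type, eNOS+/+ in blue and eNOS-/- in orange, with lines joining the cell types of a replicate. Replicate 3 of eNOS-/- is the highest in Tip ECs (1101 CPM) and Structural ECs (945.5 CPM) and has no point in neuroglia and Optc+ cells, where the other eNOS-/- replicates are at 417.4 to 1377 CPM.

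Jag1 UMIs in mural cells, the pericytes and smooth muscle cells around vessels, were counted in each eNOS-/- replicate and not detected at the lower depth of eNOS+/+. The eNOS+/+ replicates had 0 Jag1 UMIs in 74 mural cells with 60288 UMIs, and the eNOS-/- replicates had 17, 19 and 9 UMIs (224.1, 233.1 and 93.3 CPM), 45 in all in 26 of 140 cells. With 1 cell kept per family of near-identical barcodes, these were 50 cells of eNOS+/+ and 106 of eNOS-/-, 23 of the latter with Jag1. A count of 0 in eNOS+/+ allows up to 49.8 CPM over the group (3 counts, counting error only), so that the pooled level of 177.3 CPM in eNOS-/- was at least 3.56-fold higher. This bound rests on the pooled eNOS+/+ cells. In alternatives chosen after seeing the data it was at least 1.86-fold without eNOS+/+ replicate 3 and at least 2.37-fold without eNOS+/+ replicate 2. Taken alone, replicates 1 to 3 of eNOS+/+ allow up to 264.9, 148.9 and 104.1 CPM, all above the 93.3 CPM of eNOS-/- replicate 3. In the edgeR fit, from which eNOS+/+ replicate 1 with 3 mural cells was left out, Jag1 was not called, and having passed the filter on low counts through the group in which it was high, it is given as a description. Of all genes tested in mural cells, 26% had genotypes that did not overlap. At full depth a Jag1 UMI was found in 3.18% of rods.

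Of the other markers in mural cells, the mural marker sums did not overlap between the genotypes, while the EC marker sums did. The 10 EC markers summed to 2152 and 2233 CPM in the mural cells of eNOS+/+ and to 1078 to 2367 CPM in eNOS-/-, and a UMI of Cldn5, a tight junction protein of endothelium, was found in 8 of 74 mural cells of eNOS+/+ and 10 of 140 of eNOS-/-, and a UMI of Pecam1, which encodes CD31, in 25 of 74 and 66 of 140. Of the 26 cells with Jag1, all of eNOS-/-, 7 were among the 10 that had a Cldn5 UMI. The 8 mural markers summed to 15998 and 17372 CPM in eNOS+/+ and to 27497 to 29402 CPM in eNOS-/-. Their part in the result was not tested.

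No member was tested in immune cells or neurons, where none passed the filter on low counts, and cones had too few cells for a fit. In rods, where 0.032% of 3121 genes were called, 1.19% had an unadjusted p under 0.05 and 17.2% did not overlap, Jag1 was the member tested and was not called, at 88.8 and 238.1 CPM in eNOS+/+ and at 77.5, 71.3 and 417.6 CPM in eNOS-/-, with overlap (log2 fold change -0.42, 95% interval -2.07 to 1.23).

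The rest of the pathway was read from a list of 49 further genes: other ligands, Notch3, glycosylation enzymes, the proteases that cleave the receptor, the nuclear complex, corepressors, trafficking genes, targets and secreted modulators. In all ECs 30 of them were tested and 0 were called (0.0211% of all genes), with 15 below and 15 above 0 and a median log2 fold change of 0.0009. In Tip, Structural and Proliferative ECs 21, 27 and 17 were tested and 0 were called. Maml3, a coactivator that joins RBPJ and the receptor's intracellular part, was the gene of the list with an unadjusted p under 0.05 in all ECs. This was 1 of 30, beside 5.78% of all genes. Maml3 had 42.4, 19.8 and 25.0 CPM in eNOS+/+ and 16.4, 18.1 and 18.4 CPM in eNOS-/-, without overlap (log2 fold change -0.74, SE 0.34, unadjusted p = 0.0441, adjusted p = 0.858 by edgeR's quasi-likelihood test). Ncor1 of the same list was also lower in eNOS-/- without overlap (log2 fold change -0.35). Of all genes tested in all ECs, 10.4% did not overlap, 5% with eNOS-/- lower. In the subtypes the gene with an unadjusted p under 0.05 was Cir1, an RBPJ corepressor, in Tip ECs (27.2 ± 0.5 and 58.3 ± 14.6 CPM, log2 fold change 1.08, SE 0.44, adjusted p = 0.798, edgeR). This was 1 of the 21 tested there, beside 4.95% of all genes. Cir1 is named because of its value. Its log2 fold change was -0.13 in Structural ECs and 0.29 in all ECs, with overlap in both.

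Further genes of the list were read by their levels, with no test. Notch3, the receptor of mural cells, was at 175.1 ± 62.5 CPM in mural cells (98.1 to 263.6, n = 5) and at most 11.2 CPM in an EC subtype of any replicate. Heyl, a target in mural cells, was at 180.6 ± 92.6 CPM there and had UMIs in ECs only in Structural ECs of eNOS-/- replicate 3 (44.8 CPM), the replicate whose Structural ECs carried mural markers. Mfng, a Fringe enzyme like Lfng, was at 92.6 ± 16.9, 100.7 ± 25.3 and 74.5 ± 22.5 CPM in Tip, Structural and Proliferative ECs, and Rbpj at 23.6 ± 13.4, 22.2 ± 6.9 and 38.5 ± 15.95 CPM (SD, n = 6). Hes5 had 0 UMIs in all ECs, which allows up to 0.364 CPM, and Hey2 had 16, with 22 of its UMIs in neuroglia (5 and 16 in eNOS-/- replicates 1 and 2).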

How the data were processed

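Single cells of CD31-enriched retinas were measured by Drop-seq in 6 replicates, grouped by the genotype in the labels. The submitters' processing notes name bcl2fastq and Seurat 3. The authors made the counts with kb-python on GRCm38, and kept cells with over 100 genes and at most 10% mitochondrial UMIs. The authors deposited UMI counts per gene and cell, not normalized, with a table of replicate and cell type. No doublet caller was run, and doublet removal is not given in the sources used here. The members and the lists of markers and pathway genes were chosen with earlier results of these data known.

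UMIs were summed per replicate and cell type (at least 10 cells). CPM is a gene's UMIs per 1e+06 UMIs of the sum. Genotypes were compared with edgeR 4.0.16 (filterByExpr, TMM, quasi-likelihood test) under R 4.3.3 and Benjamini-Hochberg adjustment over all genes tested, at a limit of 0.05. The interaction of genotype and EC subtype was fitted with the replicate as a block. Alternatives were DESeq2 1.42.0, RLE scaling, no filter, each replicate left out, a replicate block, cells of at least 500 UMIs, 1 cell per family of barcodes that differ in the last of 12 bases (6900 of 8944 cells kept), mitochondrial genes removed, and 1 or 20 CPM in place of 5 CPM added before ratios. A single value in 3 against 3 replicates cannot reach an exact two-sided permutation p under 0.1. Of 200 genes given a log2 change of 2 in simulated counts, the test recovered 181 in all ECs, 180 in Tip, 163 in Structural and 174 in Proliferative ECs, and the interaction test 140. The genotype test recovered 158 in neurons, 146 in neuroglia, 139 in Optc+ cells, 112 in mural cells, 109 in immune cells and 68 in rods. False calls numbered 8 to 12 in the genotype fits of ECs. The log2 fold changes given for the members in ECs were smaller than 2, so these counts do not give the recovery of changes of their size.

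Named were the 10 members, Nos3, the markers, other pathway genes with an unadjusted p under 0.05 in all ECs or an EC subtype, and Ncor1. Also named were the levels of Notch3, Rbpj, Mfng, Hey2, Heyl and Hes5, and the 3 genes most like each member. EC sums held 488367 to 2425603 UMIs. Wilson intervals (95%) and floors of 3 counts cover counting error only. Gene coordinates are GRCm38 by symbol from GENCODE, and the annotation used for counting is not given in the sources used here. Levels and shares were computed with pandas 2.3.3, scipy 1.17.1 and numpy 2.4.6 under Python 3.11.15, and plots with matplotlib 3.10.9.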

Additional observations from a re-analysis of the deposited data

Results flagged for a closer look

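In 102 checks of a single replicate standing apart in a group of 4 to 10, over levels that rested on at least 20 UMIs, 3 replicates did so, and chance flags about 1 in 20. The log2 ratio of Hes1 in Proliferative to Structural ECs was -1.07 in eNOS-/- replicate 3, the lowest of 6 and far from the others. In rods, Hes1 stood at 238.1 CPM in eNOS+/+ replicate 3, from 5 UMIs, above the other 4 replicates. Lfng stood at 58.5 CPM in Proliferative ECs of eNOS+/+ replicate 2, from 13 UMIs, above the other 5.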

How the results depend on the processing

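With 1 replicate left out at a time, log2 fold changes of eNOS-/- over eNOS+/+ that turned sign ranged, in all ECs, from -0.24 to 0.060 (Jag1), -0.0010 to 0.33 (Notch1), -0.61 to 0.18 (Notch2) and -0.79 to 0.086 (Hes1). In Tip ECs the ranges were -0.56 to 0.011 (Jag2), -0.089 to 0.51 (Notch1) and -0.65 to 0.18 (Hes1). In Structural ECs they were -0.11 to 0.20 (Dll4), -0.31 to 0.14 (Jag1), -0.13 to 0.28 (Notch1), -0.85 to 0.021 (Hes1) and -0.60 to 0.16 (Lfng), and Jag1 ranged from -0.21 to 0.095 in Proliferative ECs. Notch1 in Structural ECs was also -0.022 with cells of at least 500 UMIs. None of these members passed the test in the EC fits under any alternative run. Members called numbered 1 in neuroglia with cells of at least 500 UMIs, and 0 to 1 in Optc+ cells with a replicate left out, both Hes1. The log2 ratio of Notch2 in Tip to Structural ECs was -2.19 with 1 CPM added. The cause was not tested. Genes called among all genes went from 2 to 84 without the filter and 78 without eNOS-/- replicate 3 in all ECs, from 1 to 8 and 25 in Tip, from 2 to 74 and 28 in Structural (11 with the block), and from 1 to 10 and 73 in Proliferative ECs (8 with 1 cell per barcode family).

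Same-numbered replicates of the 2 genotypes correlated at 0.132, -0.0702 and 0.114 in their deviations, and differently numbered ones at -0.170 to 0.134. With so few replicates, this check does not settle whether the numbers pair them. With the replicate block, 0 members were called, and Notch4 had a log2 fold change of -0.51 in all ECs, -0.70 in Structural and -0.70 in Proliferative ECs. Cones could not be fitted, immune cells and rods had no fit with cells of at least 500 UMIs, and the interaction already held the replicate as a block. With the filter on low counts, the depth left Nrarp untested.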

Other observations

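Dll1, a Delta-type ligand outside the 10 genes, was named after its values were seen. It stood at 62.1 to 296.9 CPM in Optc+ cells (197.7 ± 107.3, SD, n = 5, 48 UMIs), against 3.2 ± 2.6 CPM in all ECs (n = 6) and 0 UMIs in neuroglia, immune cells and neurons.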
